A study of Mus musculus with 5 samples.

Results

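The histone genes of the mouse were followed in hematopoietic stem cells (HSCs) that had lost *Syncrip*, which encodes an RNA-binding protein. Members were taken by symbol from a table of 24046 genes. Symbols beginning with Hist1h, Hist2h, Hist3h or Hist4h formed the replication-dependent class (68 genes), and those beginning with H2af or H3f formed the class of polyadenylated variants (12 genes), which gave 80 members in all. The replication-dependent class held 6 genes of the linker histone H1, 18 of H2A, 19 of H2B, 12 of H3 and 13 of H4, and the variant class held 10 genes of H2A type and 2 of H3 type. Hist3h2bb-ps and H2afy3 are annotated as pseudogenes.

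All cells came from marrow with floxed alleles of *Syncrip* (Syncrip flox/flox) that had been transplanted into CD45.1 recipients. The WT group (WT 1, WT 2 and WT 3; n = 3) lacked Mx1 Cre and the KO group (KO 2 and KO 3; n = 2) carried it. Mx1-driven Cre is switched on by the interferon inducer pIpC, which both groups received, and it acts in many interferon-responsive cells and not in HSCs alone. CD45.2+ Lin- Sca1+ cKit+ CD150+ CD48- cells were sorted 9 weeks after transplantation and 3 weeks after pIpC. Nothing in the labels says whether a library came from 1 animal or several, so that the p-values below measure the spread between these 5 libraries only.

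Histones package DNA into nucleosomes, with an octamer of H2A, H2B, H3 and H4 as the core and H1 on the linker DNA. Replication-dependent histone genes are clustered, mostly lack introns and are expressed in S phase, when new DNA has to be packaged. Their mRNAs end in a conserved stem-loop in place of a poly(A) tail. SLBP binds the stem-loop, U7 snRNP directs the cut behind it, and NPAT drives their transcription. Variant histones are made through the cell cycle from dispersed genes with ordinary polyadenylated mRNAs and are placed by their own chaperones, such as HIRA for H3.3. Among blood progenitors, histone mRNA is known to follow the rate of DNA synthesis.

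In the GENCODE M21 annotation (GRCm38), 54 of the 68 replication-dependent genes lay on chromosome 13, 10 on chromosome 3, 3 on chromosome 11 and 1 on chromosome 6. Of these genes, 63 had a single exon in their longest transcript, and the median transcript length was 537 bases. A 16-base stem-loop was found after the stop codon in 46 of the 67 that code for protein (68.7%), at 21 to 58 bases from it. Where at least 50 bases were annotated beyond the stop codon, 46 of 50 had it (92%), against 191 of 18933 other protein-coding genes of the table (1.01%). The 9 forms found in members differed at few positions, and the ones carried by more than 1 gene, with H2afx as the only variant that had one, are shown to make the processing signal visible (transcript sequence in DNA letters, stem in capitals).
Form of 26 genes, such as Hist1h1e, Hist1h2ae and Hist3h2a: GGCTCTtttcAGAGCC
Form of 7 H4 genes, such as Hist1h4d and Hist1h4c: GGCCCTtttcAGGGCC
Form of 6 genes, such as Hist1h2bk and Hist1h3e: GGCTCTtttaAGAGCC
Form of Hist1h4i and Hist2h4: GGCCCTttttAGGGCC
Form of Hist1h4b and Hist1h4j: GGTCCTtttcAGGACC
Form of H2afx: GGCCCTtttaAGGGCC

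A poly(A) signal (AATAAA or ATTAAA in the last 60 bases of the transcript) was present in 17 of 67 replication-dependent transcripts (25.4%), in 7 of 11 variants (63.6%) and in 78.9% of the other protein-coding genes. H2afx, the source of the damage-responsive histone H2A.X, had both a stem-loop and a poly(A) signal. The libraries were made with a kit that primes on poly(A), so which molecules gave the reads of stem-loop genes was not tested, and levels of the classes are not compared as amounts of RNA.

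Replication-dependent promoters also shared short motifs. In windows from 250 bases before to 50 after the start (RefSeq, GRCm38.p6), the CCAAT box was found on either strand in 52 of 61 (85.2%), against 37.9% of 27025 promoters. It was in each promoter of H1, H2A, H2B and H3 and in 3 of 12 of H4. The octamer ATTTGCAT occurred in 7 of 17 H2A and 6 of 16 H2B promoters and in none of H1, H3 or H4, with 1.75% among all promoters. Windows of neighbouring H2A and H2B genes read in opposite directions can overlap, so that a site may count for both genes. In the Hist1h2ae window printed below, TTTATA and ATGCAAAT are also the TATA box and octamer matches of Hist1h2bg on the other strand. The H1 box AAACACA occurred in 5 of 6 H1 promoters (7.14% of all), and the TATA box TATAAA in 57.4% of the class against 14.2%. The promoters of the H1, H2A and H4 genes with the most reads are printed with these motifs in capitals (reverse complements included); a match is a description of letters, not of binding. They are those of Hist1h1e (chr13:23622509-23622808, minus strand), Hist1h2ae (chr13:23571171-23571470, minus strand) and Hist1h4d (chr13:23581318-23581617, plus strand).
Hist1h1e: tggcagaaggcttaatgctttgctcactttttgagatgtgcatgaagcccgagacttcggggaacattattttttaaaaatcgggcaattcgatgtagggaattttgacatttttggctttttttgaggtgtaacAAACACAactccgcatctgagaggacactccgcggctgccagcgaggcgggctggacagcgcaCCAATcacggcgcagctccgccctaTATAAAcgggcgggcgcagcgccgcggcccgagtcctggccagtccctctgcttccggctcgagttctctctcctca
Hist1h2ae: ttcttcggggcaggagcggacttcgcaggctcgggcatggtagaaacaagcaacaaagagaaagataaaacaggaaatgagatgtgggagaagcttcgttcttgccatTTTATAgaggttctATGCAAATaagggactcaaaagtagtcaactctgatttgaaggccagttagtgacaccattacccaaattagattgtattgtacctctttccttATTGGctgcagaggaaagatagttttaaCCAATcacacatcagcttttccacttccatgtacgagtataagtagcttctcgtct
Hist1h4d: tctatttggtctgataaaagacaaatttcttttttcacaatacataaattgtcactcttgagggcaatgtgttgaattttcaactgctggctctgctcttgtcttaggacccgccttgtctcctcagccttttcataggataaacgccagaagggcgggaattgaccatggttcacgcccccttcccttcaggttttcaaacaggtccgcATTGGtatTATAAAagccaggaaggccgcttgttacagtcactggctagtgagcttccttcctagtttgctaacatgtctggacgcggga

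The libraries held 12539599 (KO 3) to 22779536 (WT 3) reads, and both KO libraries were shallower than the WT libraries. *Syncrip* had normalized read counts (reads divided by the size factor of the library) of 1440 to 1944 in WT and 294 and 343 in KO, and its log2 fold change was -2.34 to -2.55 when a WT library was left out, where its limma call was lost (adjusted p = 0.164 to 0.21), as it was with no filter (0.157) and, at -1.47, once the trend on length and GC was removed (0.172). The transcripts of the gate proteins Kit, Ly6a (Sca1) and Slamf1 (CD150) were present in all 5 libraries, but so was Cd48, at 601 to 768 in WT and 459 and 191 in KO. Genes of granulocyte progenitors such as Mpo and Elane were among the most abundant measured, at 71505 or more in every library. KO 2 held adipocyte transcripts (8 of 8 listed at 100 or more, 1190 CPM in sum, the reads of a gene per 1000000 of its library) where the other libraries summed to 3.27 to 28 CPM, Ucp1, Cidea and Cidec being at 0 in them, and WT 2 held stromal transcripts (66.5 CPM against 1.46 to 5.09). Over 13 genes of mature lineages and their progenitors the sum was 21420 to 27040 CPM in WT and 24550 and 14360 in KO. Itgam, a single gene of this list, had both KO values below all WT values (log2 fold change of -1.46). The directions of the other genes of the list are not given here, so Itgam does not stand for them. The part of these other transcripts in the histone values was not tested. Values without KO 2 are given where it decides a count. In bulk samples fewer cells of a type and less RNA per cell cannot be told apart.

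Reads of replication-dependent histone genes took a larger share of the KO than of the WT libraries in all families. No single member passed limma, and the values moved with transcript GC, as given below. The summed share of the class was 412, 337 and 364 CPM in WT 1, WT 2 and WT 3, and 677 and 855 in KO 2 and KO 3, so that both KO libraries stood above every WT library. The sum of normalized read counts was 6993 ± 585 (SD) for the 3 WT and 14510 ± 2507 (SD) for the 2 KO libraries, 2.07 times the WT mean. By family the ratio of KO to WT was 2.19 for H1, 2.40 for H2A, 1.47 for H2B, 1.86 for H3 and 2.01 for H4. In each family both KO sums lay above all WT sums. The 6 genes with the highest means took 59.0% to 65.6% of the class in each library, so that the sums describe those genes foremost.

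**Figure D1:**
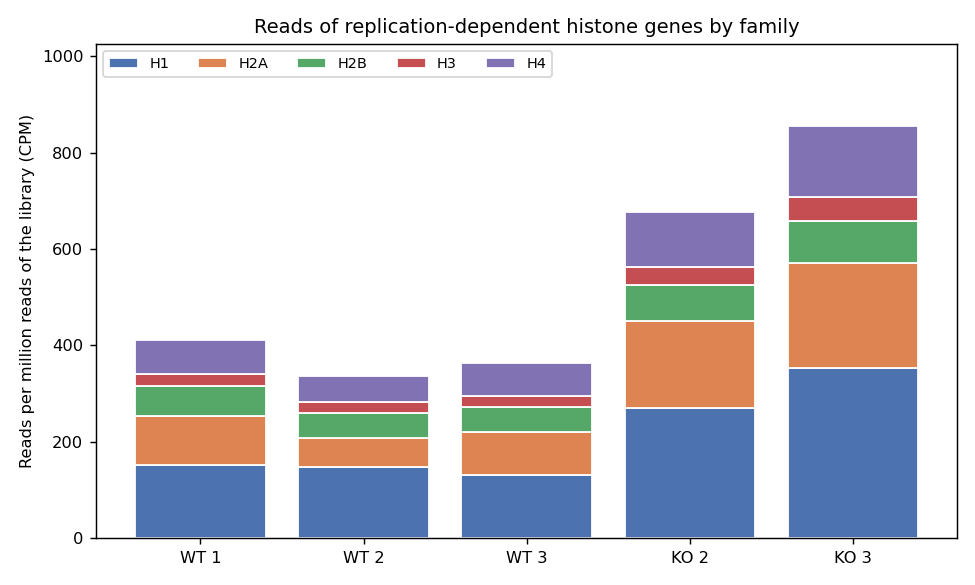
Reads of replication-dependent histone genes in CPM, stacked by histone family, for each of the 5 libraries; each bar is 1 library. The WT bars reach 337 to 412 and the KO bars 677 and 855.

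Of the 68 replication-dependent genes, 58 reached a value of 10 in 2 or more libraries and were tested with limma on log2(value + 1), together with 13661 genes in all. At an adjusted p under 0.05 and at least 2-fold, limma called 0 of the 58, and 0.00732% of all genes (1 gene, *Syncrip*); the lowest adjusted p of a member was 0.0815. At an unadjusted p under 0.05, 16 of the 58 were higher in KO and 0 lower, against 13.3% of all genes higher and 14.5% lower. At an adjusted p under 0.1 and 2-fold, limma gave 6 members, against 2.06% of genes that were higher. DESeq2 on the recovered reads, the tool of the study, called 8 of the 58 higher (13.8%) against 3.6% of all genes, while edgeR called 0 members and 0.0146% of genes. At an adjusted p under 0.05 without a fold limit DESeq2 gave 11 members higher (8.2% of all genes) and 0 lower (8.43%), and returned no adjusted p for 18 low members.

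The direction was shared by nearly the whole class. The log2 fold change was above 0 in 57 of 58 members (98.3%, with 51.1% of all genes) and at least 1 in 24 (41.4%, with 9.14%). Both KO values lay above all WT values in 49 members (84.5%, with 23.9% of all genes) and below them in 0 (23.2%). Hist1h3h, Hist2h2aa1 and Hist2h2aa2, which are among these 49 and the 24, reached the filter only through their KO values. Their place in these counts was therefore partly set by the filter. The median log2 fold change of the class was 0.92, against 0.02 over all genes, with a range of -0.42 to 1.80 (Hist1h3h). It was seen in each KO library: the median difference from the WT mean was 0.74 in KO 2 and 1.07 in KO 3, and 57 of 58 members were above the WT mean in either, whereas each WT library differed from the other WT libraries by a median of 0.04, -0.18 and 0.07. With KO 2 left out and KO 3 as the lone KO library, assumed to vary like WT, limma called 9 members, close to the share of all genes it then called (16%).

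**Figure D2:**
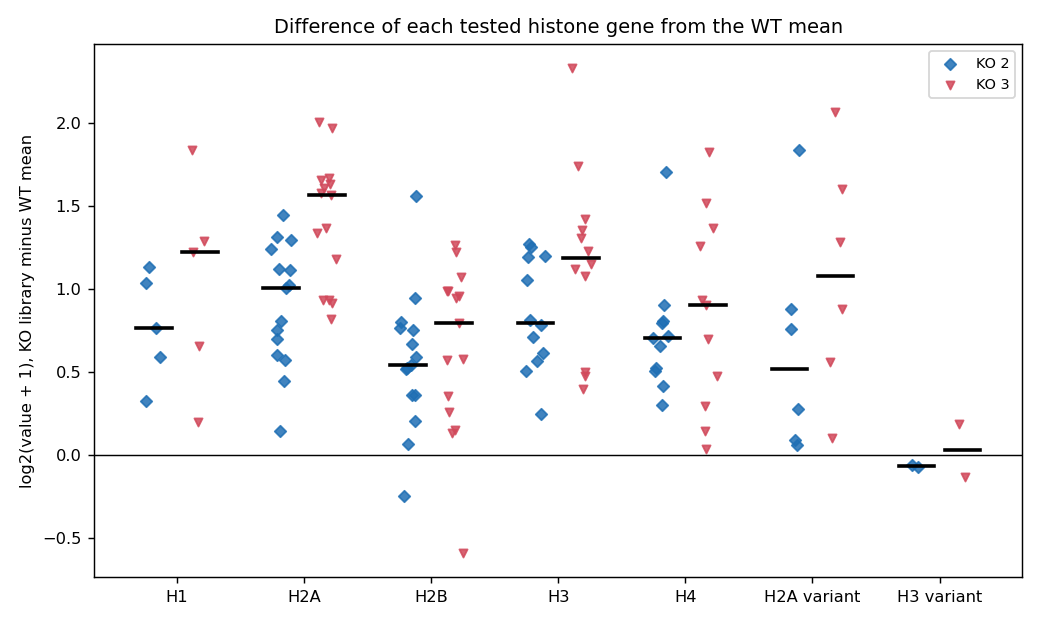
Difference of each tested histone gene from the WT mean on the log2(value + 1) scale, for KO 2 and KO 3 apart, by family; each point is 1 gene and the black bar is the median. In the H1, H2A, H2B, H3 and H4 families the medians of both libraries lie above 0, and the H3 variants lie near 0.

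Transcript composition moved with these values. The log2 fold changes of all genes followed GC content, with a median of -0.80 in the lowest of 10 equal bins by transcript GC and 0.74 in the highest, and 29 of the 58 members fell in the highest bin, where 62.1% of all genes had both KO values above WT. The members there had a median of 1.04. The 13 members in the 5 lower bins had medians of 0.79 to 1.03 per bin, where the medians of all genes were -0.80 to -0.05. Their coding sequences were not low in GC, since the 13 transcripts under 50% GC had a median coding GC of 64.0%, near the 65.7% of the class. After the dependence on log2 length and GC had been taken out of each library by a linear fit, the median of the class was 0.36, and 43 of 58 members stayed above 0 (74.1%, with 48.5% of all genes). This differed by GC, with a median of 1.26 for the 13 members under 50% transcript GC (12 above 0), 0.57 for the 21 at 50% to 60% (18 above 0) and 0.07 for the 24 at 60% or more (13 above 0), so that the members of highest GC lay close to the trend of all genes.

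**Figure D3:**
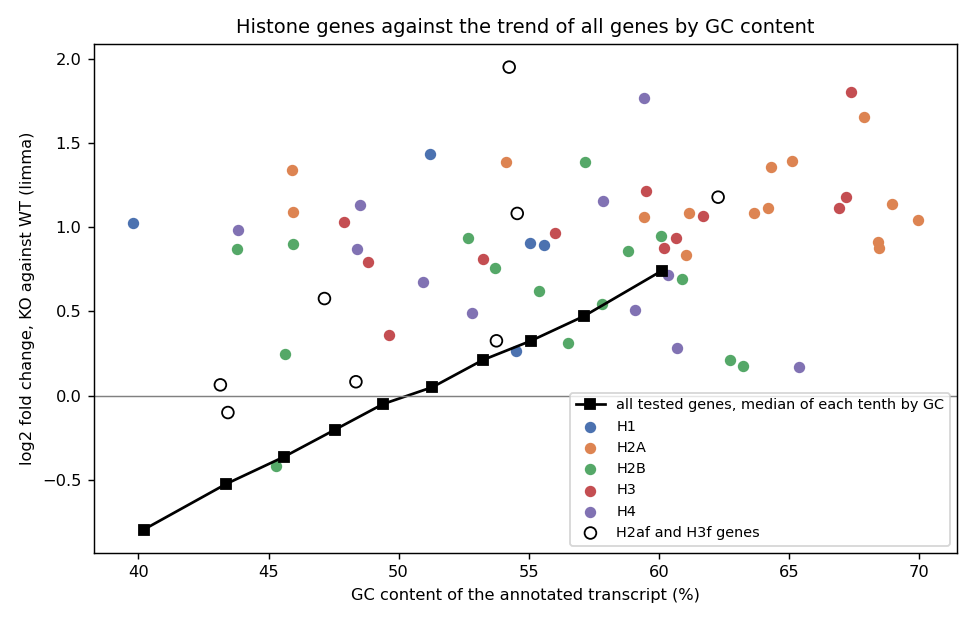
Log2 fold change (limma, KO against WT) of each tested histone gene against the GC content of its annotated transcript, coloured by family, with open circles for variants; black squares are the medians of all tested genes in 10 equal bins by GC. Most replication-dependent genes lie above the line at low and middle GC, whereas at the highest bin the median of all genes is 0.74 and that of the members 1.04.

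Within the replication-dependent class, linker histones held the most reads. Hist1h1e, the gene of H1.4, read 869, 987 and 780 in WT and 1794 and 3124 in KO, so that both KO libraries were above all WT libraries. It had a log2 fold change of 1.44 (SE 0.26, adjusted p = 0.0815 in limma and 5.67e-05 in DESeq2), the largest in the family. Hist1h1d, which encodes H1.3, read 345, 418 and 289 in WT and 589 and 847 in KO (log2 fold change 1.03, SE 0.28). DESeq2 called both, with an adjusted p of 0.0112 for Hist1h1d. Hist1h1b (H1.5) read 834, 626 and 788 in WT against 1632 and 1171 in KO, with KO 2 above KO 3. Hist1h1c (H1.2) read 614, 697 and 611 against 964 and 1494. These were 1.87 and 1.92 times the WT mean, under the 2-fold limit, at adjusted p of 0.00908 and 0.00862 in DESeq2. Once the trend on length and GC was removed, the values were 0.55 for Hist1h1b, 0.57 for Hist1h1c, 1.38 for Hist1h1e and 1.78 for Hist1h1d. Hist1h1a (H1.1), which falls outside the naming rule, was the tested H1 gene whose groups overlapped, at 89.9, 46.0 and 92.6 in WT and 91.5 and 83.5 in KO. Hist1h1t, the testis form, had at most 1.71 in a library and was not tested.

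In H2A both KO values lay above all WT values in 15 of 15 tested genes (23.9% of all genes), at a median log2 fold change of 1.09. Hist2h2aa1 and Hist2h2aa2, among these 15, reached the filter only through KO. Hist1h2ae, whose promoter is printed above, read 1052, 411 and 893 in WT and 1982 and 1839 in KO. This gave a log2 fold change of 1.39 (SE 0.37, adjusted p = 0.0853 in limma and 0.00978 in DESeq2), with WT 2 far below the other WT libraries. Hist3h2a on chromosome 11 read 178, 155 and 168 in WT and 340 and 529 in KO (log2 fold change 1.34, SE 0.31). Hist1h2ab read 102, 85.9 and 105 against 213 and 311 (1.40, SE 0.35). KO 3 was the highest library for both. Hist1h2ac read 99.1, 83.3 and 111 in WT and 171 and 252 in KO, and Hist1h2an read 83.3, 90.3 and 78.8 against 137 and 252. DESeq2 called all 5 of these H2A genes, Hist1h2ac and Hist1h2an at adjusted p of 0.0416 and 0.0453. Hist2h2ac, at 97.4, 84.2 and 98.5 against 142 and 278, and Hist1h2ak, at 94.9, 69.4 and 83.1 against 122 and 187, did not pass it, although neither had groups that overlapped. Once the trend on length and GC was removed, the values were 1.16 for Hist1h2ae, 1.68 for Hist3h2a, 0.35 for Hist1h2ab, 1.42 for Hist1h2ac, -0.19 for Hist1h2an, 0.34 for Hist2h2ac and -0.41 for Hist1h2ak.

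**Figure D4:**
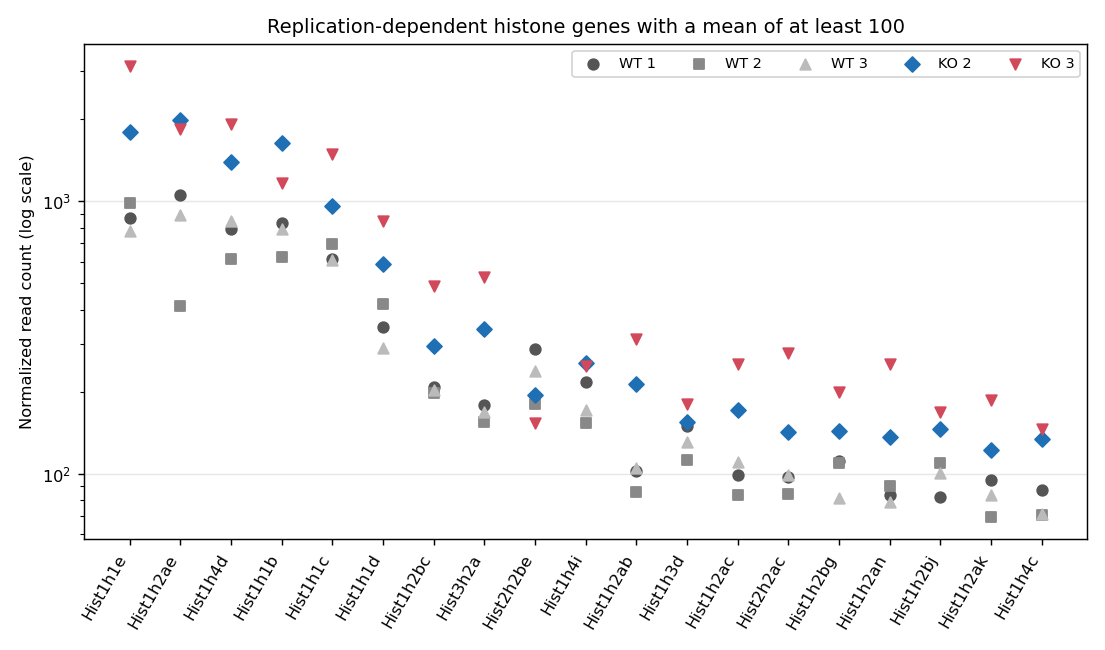
Normalized read count (log axis) in each of the 5 libraries for the 19 replication-dependent genes with a mean of at least 100, in order of their mean; each point is 1 library. The KO points lie above all WT points in 18 of the 19 (23.9% of all genes), Hist2h2be being the exception.

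H2B genes had a median log2 fold change of 0.69, and in 11 of 15 both KO values lay above all WT values (23.9% of all genes). Once the trend on length and GC was removed, the family medians were 0.57 for H1, 0.34 for H2A, 0.29 for H2B, 0.51 for H3 and 0.65 for H4, so that the order of the families depended on it. Hist1h2bc read 207, 197 and 203 in WT and 295 and 488 in KO (log2 fold change 0.90, SE 0.31, adjusted p = 0.117 in limma and 0.0383 in DESeq2). The WT libraries agreed closely, and the fold was below the 2-fold limit. Hist1h2bg read 112, 109 and 81.4 against 144 and 199, and Hist1h2bj 82.4, 109 and 100 against 146 and 169. In both genes the groups did not overlap, and neither test was passed. Once the trend was removed, the values were 0.56 for Hist1h2bg and -0.034 for Hist1h2bj. Hist2h2be was the only tested replication-dependent gene with a log2 fold change below 0. With the trend removed, 15 of the 58 were below 0, Hist2h2be at -0.036 among them. Hist2h2be read 286, 180 and 239 in WT and 194 and 153 in KO, and the groups overlapped (log2 fold change -0.42, SE 0.33, adjusted p = 0.433 in limma). Its transcript has 2192 annotated bases after the stop codon and a poly(A) signal, and no stem-loop was matched.

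Mouse H2A and H2B genes often lie head to head and share a promoter region, as Hist1h2ae and Hist1h2bg do with 176 bases between their starts. There were 13 such pairs, with starts 173 to 306 bases apart, and both genes were tested in 9. The log2 fold change of the H2A gene was above that of its H2B partner in 9 of 9 pairs, and in 8 of 9 with the length and GC trend removed. Both genes were above 0 in 8 of the 9 pairs. For Hist1h2ae and Hist1h2bg the values were 1.39 and 0.76, for Hist1h2ac and Hist1h2bc 1.09 and 0.90, and for Hist2h2ac and Hist2h2be 1.08 and -0.42. The pattern was seen after the values were known, and it was given no test.

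H3 genes were low, and their reads few. The median log2 fold change was 1.00 over 12 tested genes, and 11 of them had both KO values above all WT values (23.9% of all genes). Hist1h3h, among these 11, reached the filter only through KO. Only Hist1h3d reached a mean of 100; it read 149, 112 and 131 in WT and 154 and 181 in KO (0.36, SE 0.34), a difference about as large as its error. No H3 gene passed DESeq2, and 4 of the 12 received no adjusted p from it.

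Among H4 genes, Hist1h4d held the most reads, at 791, 615 and 846 in WT and 1390 and 1920 in KO. Both KO libraries lay above all WT libraries (log2 fold change 1.13, SE 0.24, adjusted p = 0.0815 in limma and 0.000876 in DESeq2). Hist1h4i read 216, 154 and 171 against 254 and 249, and Hist1h4c 87.4, 70.3 and 71.1 against 134 and 146. In both genes the groups did not overlap, and no test was passed. The family had a median of 0.71 over 11 tested genes, and in 8 both KO values lay above all WT values (23.9% of all genes).

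The 39 tested genes with a mean under 100 rested on a median of 33 reads per library (4 to 109) and had standard errors of 0.42 to 0.95 on the log2 scale, against 0.24 to 0.41 for the 19 higher ones. Their median log2 fold change (0.93) was near that of the higher genes (0.91). Members with a matched stem-loop (41 tested, median 0.95) and without (17, median 0.89) had similar medians, as did those on chromosome 13 (45, median 0.91) and chromosome 3 (10, median 0.86). Removing the trend on length and GC set some of these groups apart. The median was then 0.57 for genes with a stem-loop, 37 of 41 being above 0, and -0.04 for those without, 6 of 17 being above 0. The split followed annotation and GC as well, with a median transcript GC of 56.5% and 65.4% in these groups, and the 15 genes with fewer than 50 annotated bases after the stop codon had a median of -0.06, 5 of them being above 0. It was 0.28 for the 39 lower and 0.56 for the 19 higher genes. The 10 members not tested had at most 34.9 in any library. Reads could be split between near-identical copies: Hist2h2aa1 and Hist2h2aa2, Hist1h2ao and Hist1h2ap, Hist1h2bq and Hist1h2br, and Hist1h4m and Hist1h4n have the same coding sequence, and the median identity to the nearest gene of the same family and length was 96.8% to 99.0% in the H2A, H2B, H3 and H4 families. Hist2h2aa1 and Hist2h2aa2, Hist1h2ao and Hist1h2ap, and Hist2h3c1 and Hist2h3c2 differed by at most 2 reads in any library, so that the pairs among them that were tested are not separate measurements, although each gene is counted as 1 member above. Values of single genes in these families are uncertain to that extent. The family sums are less so if such reads were split, but not if they were dropped. Which was done is not known here.

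The polyadenylated variants divided by gene. Of the 12, 8 were tested; H2afb1, H2afb2 and H2afb3 were listed at 0 in every library and H2afy3 had at most 13.7. Limma called 0 of the 8, with a lowest adjusted p of 0.0815, and 4 were higher at an unadjusted p under 0.05 (13.3% of all genes). DESeq2 called 3 higher (3.6% of all genes). In 4 of 8 both KO values lay above all WT values (23.9% of all genes), and the median log2 fold change was 0.45. It was 0.18 in KO 2 and 0.72 in KO 3, so that the size of this median depended on KO 3.

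H2afx, whose protein is phosphorylated at DNA breaks, read 10232, 14530 and 12509 in WT and 20787 and 37252 in KO. Both KO libraries lay above all WT libraries (log2 fold change 1.18, SE 0.27, adjusted p = 0.0815 in limma and 0.00106 in DESeq2), and its value was 0.31 once the trend on length and GC was removed. H2afj, which encodes H2A.J, read 2615, 2744 and 2704 in WT and 4944 and 6543 in KO (1.08, SE 0.18, adjusted p = 1.75e-05 in DESeq2). H2afy2, which encodes macroH2A2, had the largest log2 fold change of the tested variants. It read 77.4, 92.0 and 67.7 in WT and 283 and 331 in KO (1.95, SE 0.35, adjusted p = 0.0815 in limma and 2.84e-05 in DESeq2), which is 3.88 times the WT mean. H2afv, one of the H2A.Z genes, read 3163, 3285 and 3397 against 3970 and 6025 (0.58, SE 0.21, adjusted p = 0.0494 in DESeq2).

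The other variants showed no separation. H2afy, the gene of macroH2A1, read 14817, 13970 and 11592 in WT and 14277 and 19704 in KO (log2 fold change 0.33, SE 0.21), with KO 2 inside the WT range. H2afz, the main H2A.Z gene, read 11023, 9279 and 11441 against 10971 and 11342 (0.08, SE 0.17). The H3.3 genes H3f3a and H3f3b, which encode the same protein, had log2 fold changes of 0.06 (SE 0.20) and -0.10 (SE 0.18). H3f3a read 3235, 2342 and 2892 in WT and 2681 and 3191 in KO. H3f3b read 22045, 17359 and 20137 in WT and 18799 and 18050 in KO. For H2afz, H3f3a and H3f3b both KO values lay within the range of the WT libraries. Once the trend on length and GC was removed, however, the log2 fold changes were 0.26 for H2afz, 0.60 for H3f3a, 0.42 for H3f3b and 0.079 for H2afy, and those of all 8 tested variants were above 0. Per kilobase of transcript, the WT level was highest for H2afz (9898 ± 1073, SD, n = 3), H2afx (8977 ± 1554), H3f3b (7895 ± 937) and H2afy (6578 ± 817), and neighbours in that order did not differ beyond their spread. H2afv (2009 ± 71.8), H2afj (1468 ± 36.1) and H3f3a (994 ± 158) came next, and H2afy2 was far lower at 36.3 ± 5.62.

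**Figure D5:**
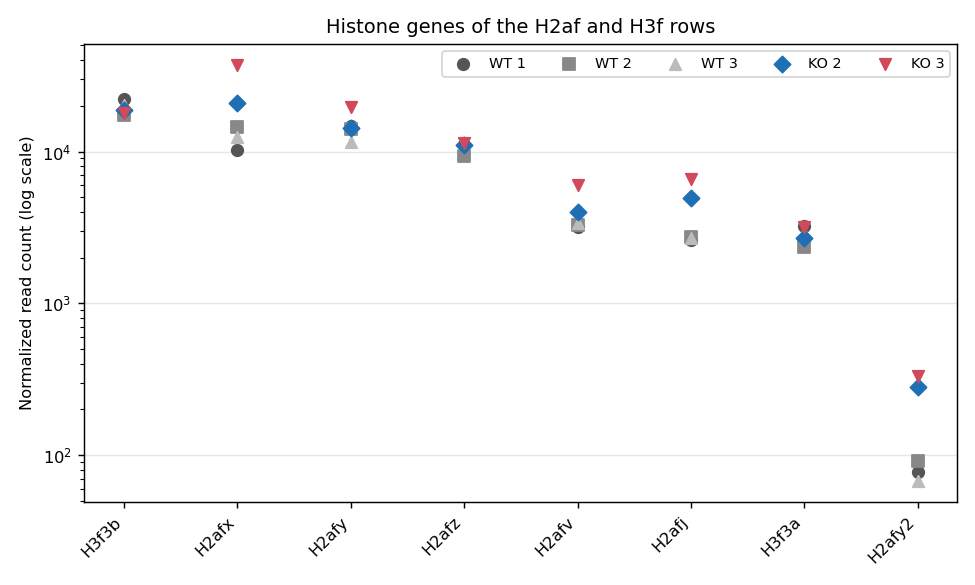
Normalized read count (log axis) of the 8 tested variant genes in each of the 5 libraries, in order of their mean; each point is 1 library. Both KO points lie above all WT points for H2afx, H2afj, H2afv and H2afy2, and within or across the WT points for H3f3b, H2afy, H2afz and H3f3a.

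Histone genes with other symbols gave a mixed picture. H1f0, the linker histone of differentiated cells, read 3432, 2147 and 2047 in WT and 3794 and 6681 in KO (log2 fold change 1.03, SE 0.30, adjusted p = 0.0154 in DESeq2). H1fx read 798, 636 and 395 against 1251 and 4746 (2.06, SE 0.52, adjusted p = 0.00028 in DESeq2), with KO 3 far above KO 2, and its value was 0.51 once the trend on length and GC was removed. Cenpa, the H3 variant of centromeres, had a log2 fold change of -0.06 (SE 0.20) and groups that overlapped.

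Of the genes that make or process histone mRNA, 23 of 24 listed were in the table and tested. Limma called 0. At an unadjusted p under 0.05, 4 were higher and 5 lower, against 13.3% and 14.5% of all genes, and the median log2 fold change was -0.10. Both KO values lay above all WT values in 8 and below them in 11 of the 23 (23.9% and 23.2% of all genes). Npat, the transcriptional coactivator of the class, read 1031, 961 and 1069 in WT and 590 and 386 in KO, so that both KO libraries lay below all WT libraries (-1.09, SE 0.24, adjusted p = 0.0815 in limma and 0.00252 in DESeq2). It was the only gene of the 23 that DESeq2 called, where 561 of all 13661 tested genes were called lower. Its value with the length and GC trend removed was -0.37. Slbp, which encodes the stem-loop binding protein, read 5715, 5686 and 7341 against 5219 and 3630 (-0.51, SE 0.21, adjusted p = 0.167 in limma), also below all WT libraries. Casp8ap2 (FLASH), which recruits the cleavage factors, read 1227, 940 and 1202 against 830 and 539 (-0.74, SE 0.25). Eri1, the exonuclease that trims the stem-loop, read 2816, 2628 and 3261 against 1944 and 1964 (-0.56, SE 0.18, adjusted p = 0.0261 in DESeq2). Once the trend on length and GC was removed the values were -0.25 for Slbp, -0.072 for Casp8ap2 and -0.053 for Eri1. The genes Snrpb and Snrpf of the Sm ring of small nuclear RNPs had positive values, 0.75 (SE 0.17) and 0.78 (SE 0.24), and for both the KO libraries lay above all WT libraries. Their values were 0.23 for Snrpb and 1.5 for Snrpf once the trend was removed.

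Of 35 listed histone chaperone genes, 34 were tested, and limma called 0. At an unadjusted p under 0.05, 2 were higher and 11 lower (13.3% and 14.5% of all genes), and the median log2 fold change was -0.20. Both KO values lay above all WT values in 5 and below them in 9 of the 34 (23.9% and 23.2% of all genes). Atrx, which with DAXX places H3.3 at repeats, read 3382, 2368 and 2914 in WT and 1715 and 1423 in KO (-0.87, SE 0.21, adjusted p = 0.0816 in limma and 0.00433 in DESeq2). Spty2d1 read 970, 948 and 1057 against 598 and 516 (-0.83, SE 0.20). For both the KO libraries lay below all WT libraries, without a 2-fold change, and once the trend was removed the values were -0.11 for Atrx and -0.43 for Spty2d1. Among chaperones of the replication fork, Asf1b read 3090, 3570 and 4107 against 3036 and 1610 (-0.69, SE 0.27, adjusted p = 0.15 in limma), while Asf1a (-0.21, SE 0.21), Chaf1a (0.03, SE 0.22) and Chaf1b (0.21, SE 0.17) differed by about their errors. Hira, the chaperone of H3.3, was at 0.08 (SE 0.36). Asf1a, Chaf1a, Chaf1b and Hira each changed sign once the trend was removed, with the values given in the last section. The H2A.Z chaperone genes Vps72 and Anp32e were at 0.60 (SE 0.22) and -0.48 (SE 0.18), or at 0.12 and -0.057 once the trend was removed. Npm1 read 9314, 4337 and 7967 in WT and 4897 and 2422 in KO (-0.99, SE 0.38, or -0.38 once the trend was removed), with KO 2 inside the WT range.

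Genes of the S phase were set beside the class because its transcripts are made then. Over 24 such genes the median log2 fold change was -0.26, -0.01 in KO 2 and -0.51 in KO 3, while that of the replication-dependent class was 0.74 and 1.07 in the same libraries. At an unadjusted p under 0.05 in limma, 3 were higher and 7 lower (13.3% and 14.5% of all genes). Pcna, the sliding clamp of the polymerases, read 4023, 3152 and 4151 in WT and 3418 and 2307 in KO. Rrm2, a subunit of ribonucleotide reductase, read 11074, 11459 and 14642 against 9747 and 4348, and Ccne2, a cyclin of S phase entry, read 1310, 854 and 1481 against 450 and 204. Both KO libraries lay below all WT libraries for Rrm2 and Ccne2, while the groups overlapped for Pcna. Both KO values lay below all WT values in 9 of the 24 and above them in 3 (23.2% and 23.9% of all genes). Cdt1, Gins2 and E2f1, which act in origin licensing, replisome assembly and the transcription of S phase genes, had log2 fold changes of 0.67, 0.48 and 0.44 with both KO values above all WT values. Once the trend on length and GC was removed, the median of the list was -0.14, with 4 genes above 0 and 20 below, and Cdt1 was at 0.048, Gins2 at 0.24, E2f1 at -0.16, Pcna at -0.019, Rrm2 at -0.59 and Ccne2 at -0.82.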

How the data were processed

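RNA sequencing was carried out on sorted HSCs (3 WT and 2 KO libraries) with the SMART-Seq v4 kit. The authors deposited normalized signal, namely read counts divided by a size factor per library; the submitters' processing notes name STAR, featureCounts, DESeq2 and mm10, and strand use and annotation were not given in the sources used here. A deposited table of the authors' own comparison (fold changes and p-values) was not used. Dividing each column by its step gave whole reads for 100% of values (within 0.01 of a read). Depth was 12539599 to 22779536 reads, and errors cover these libraries only.

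Genes that reached a value of 10 in 2 or more libraries were tested with limma 3.58.1 on log2(value + 1) (pseudocount of 1; the scale understates changes of low genes), all 5 libraries and no covariate, with Benjamini-Hochberg adjustment over 13661 genes; calls needed an adjusted p under 0.05 and 2-fold. DESeq2 1.42.0 and edgeR 4.0.16 (quasi-likelihood) were run on the recovered reads (R 4.3.3, Python for sequences). The procedures were run on simulated reads with the same dispersion for all genes and no trend on length or GC, so they were not tested against such a trend. Annotation was GENCODE M21, and 70 of 80 members matched a RefSeq promoter (GRCm38.p6). Named were tested variants, replication-dependent genes with a mean of at least 100, members called by a count test, Syncrip, and, of the processing and chaperone lists, the 5 lowest limma p each plus Slbp, Npat, Hira, Asf1a, Asf1b, Chaf1a and Chaf1b. Hist1h1a and the S phase and other histone genes were named in addition, after their values were seen. Members, lists and tests were chosen with earlier results of these data known. Alternatives covered the pseudocount, filter, scaling, tool, threshold, replicate block, each library in turn and a length and GC correction.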

Additional observations from a re-analysis of the deposited data

How the results depend on the processing

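Calls by limma at the main limits stayed at 0 for both histone classes and both lists under another pseudocount, filter or scaling, the replicate block, the length and GC correction, edgeR and the removal of any library but KO 2. DESeq2 called 8 replication-dependent, 3 variant and 1 processing gene, and an adjusted p under 0.1 gave 6, 3 and 1. Leaving out a library gave 0 to 9 replication-dependent, 0 to 3 variant, 0 to 3 processing and 0 to 7 chaperone genes, the highest each time without KO 2, where 16% of all genes were called. The cause was not tested.

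The median log2 fold change of the replication-dependent class was 0.80 with a pseudocount of 10, 0.74 to 1.07 when a library was left out, and 0.36 once the trend on length and GC was removed (0.38 with the replicate block as well). That of the variants was 0.20 with no filter, 0.43 with TMM scaling, 0.47 in DESeq2, 0.47 with the replicate block, 0.51 with the trend removed (0.55 with the block as well) and 0.18 to 0.72 when a library was left out. The median of the processing list was 0.036 without the trend (-0.033 with the block as well) and -0.18 to -0.085 when a library was left out, and that of the chaperones -0.11 (-0.085) and -0.30 to -0.081. Library numbers gave no sign of pairing (r = -0.059 for WT 2 with KO 2 and -0.18 for WT 3 with KO 3). The deviations of KO 2 and KO 3 from their mean mirror each other, so these are not separate values and cannot decide the question. The replicate block changed no call of a histone gene, but the main fit had called none.

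Of the replication-dependent genes, 15 of 58 were below 0 with the trend removed, against 1 before. Of the genes named by the rule, these changed sign. With the trend removed, values were 0.42 for H3f3b, -0.19 for Hist1h2an, -0.034 for Hist1h2bj, -0.41 for Hist1h2ak, -0.19 for Hira, 0.68 for Asf1a, -0.36 for Chaf1a and -0.020 for Chaf1b, and of those named in addition -0.16 for E2f1, -0.0021 for Hist1h1a and 0.19 for Cenpa. When the replicate block was added they were 0.45 for H3f3b, 0.083 for Hist2h2be, -0.14 for Hist1h2an, -0.14 for Hist1h2bj, -0.25 for Hist1h2ak, -0.13 for Hira, 0.64 for Asf1a and -0.48 for Chaf1a. In edgeR, Hira was at -0.013 and Chaf1a at -0.0057, and with the replicate block alone Chaf1a was at -0.15. When a library was left out, H2afz ranged from -0.0097 (without WT 2) to 0.14, H3f3a from -0.065 (without WT 2, and also below 0 without KO 3) to 0.19, Hira from -0.23 (without WT 2, and also below 0 without KO 2) to 0.37, and Chaf1a from -0.15 (without WT 1, and also below 0 without KO 3) to 0.14. The 39 low replication-dependent genes rested on the fewest reads, and their standard errors reached 0.95.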
